A study of Mus musculus with 15 samples.

Results

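The 9 interferon-stimulated genes described here were Irf7, Usp18, Isg15, Ifit1, Ifit3, Oasl2, Bst2, Ifitm3 and Ifi27l2a. They were chosen by symbol out of 21293 genes in the deposited tables. All 9 had a value in each of 15 mice and passed the filter on low values, which 17714 genes passed. RNA came from combined corpus callosum and neocortex of wild-type mice in 3 groups of 5, and the sources used here do not give their strain, sex or age. Control mice ate standard chow and had no treatment, so neither cuprizone nor vehicle is named for them. Vehicle mice received 0.25% (w/w) cuprizone for 3 weeks together with vehicle. Siponimod mice received the same cuprizone for 3 weeks together with siponimod at 3.125 mg/kg. The copper chelator cuprizone, given in chow, causes loss of oligodendrocytes and myelin without an autoimmune trigger. Siponimod modulates sphingosine 1-phosphate receptors and is used to treat multiple sclerosis. Effects of cuprizone and of vehicle cannot be told apart in the comparison of vehicle with control mice, because no control mouse is labelled as having had vehicle.

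Type I interferons bind the receptor pair IFNAR1 and IFNAR2, which act through the kinases JAK1 and TYK2. A complex that includes STAT2 and IRF9 then binds the interferon-stimulated response element (ISRE) and turns on genes such as those described here. Interferon gamma acts through a separate sequence, the GAS element. In the brain, microglia, astrocytes and endothelial cells all respond to interferons, and interferon-responsive microglia are a known state of injured or demyelinated tissue.

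Promoter sequences of Isg15, Ifit1, Ifit3 and Bst2 are shown because they hold upstream matches to the element through which type I interferons act. RefSeq (GRCm38.p6) windows from 250 bases before to 50 bases after the transcription start were at hand for 7 of the 9 genes, and Usp18 and Ifi27l2a were not among them. Each line gives bases 170 to 31 upstream of the start, 5′ to 3′ on the gene's own strand, and capitals mark every base of a match, on either strand, to the ISRE core (GAAA, any 2 bases, then GAAA again). The regions are chr4:156200849-156200988 on the minus strand for Isg15, chr19:34640719-34640858 on the plus strand for Ifit1, chr19:34583359-34583498 on the plus strand for Ifit3 and chr8:71537503-71537642 on the minus strand for Bst2.
Isg15: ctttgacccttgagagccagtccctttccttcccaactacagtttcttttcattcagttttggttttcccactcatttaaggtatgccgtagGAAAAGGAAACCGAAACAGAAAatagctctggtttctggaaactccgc
Ifit1: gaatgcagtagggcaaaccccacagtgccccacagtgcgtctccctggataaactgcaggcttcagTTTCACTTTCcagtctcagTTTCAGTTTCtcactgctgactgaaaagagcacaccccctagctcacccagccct
Ifit3: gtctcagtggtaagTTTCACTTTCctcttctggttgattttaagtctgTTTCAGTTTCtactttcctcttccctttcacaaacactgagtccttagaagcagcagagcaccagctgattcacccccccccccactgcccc
Bst2: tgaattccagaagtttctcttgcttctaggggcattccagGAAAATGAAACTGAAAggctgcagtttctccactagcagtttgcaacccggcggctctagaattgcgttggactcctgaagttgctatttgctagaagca

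The ISRE core was found in 5 of the 7 windows, against 3.44% of 32851 promoter windows of the same 300 bases. Isg15 held 3 overlapping matches that began 78, 72 and 66 bases before the start, all on the gene's own strand. Ifit1 held matches at 104 and 85 bases before the start, and Ifit3 at 156 and 122, all on the opposite strand. In both genes the upstream match read GAAAGTGAAA and the nearer one GAAACTGAAA. Bst2 held 2 overlapping matches that began 130 and 124 bases before the start. In Ifitm3 the matches lay just past the start, 2 and 19 bases after it, and are not printed. The windows of Irf7 and Oasl2 held no match to these letters. A GAS element, searched as TTCNNNGAA, was present in Bst2 at 136 bases before the start, where it overlapped an ISRE match, and in Ifitm3 at 13 bases after it, where it overlapped another. Of all windows 8.30% held it.

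**Figure D1:**
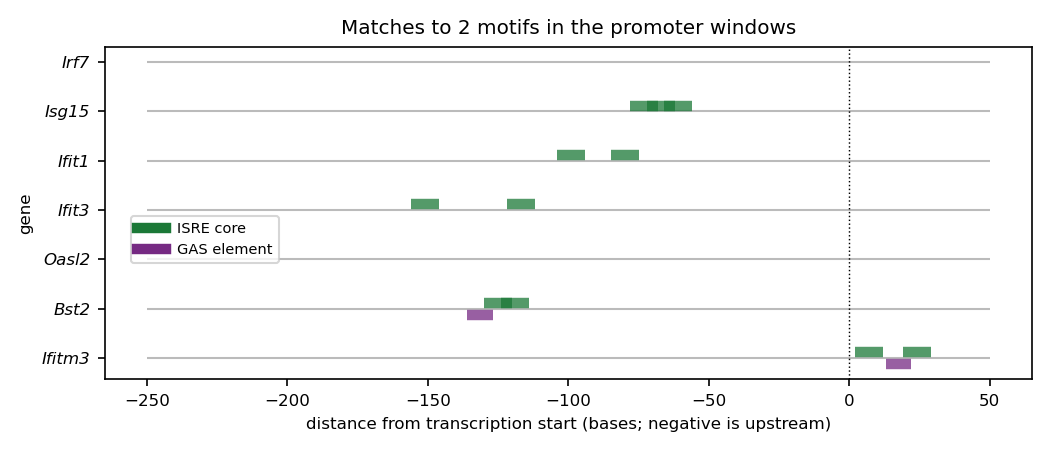
Positions of matches to the ISRE core (green) and the GAS element (purple) in the promoter windows of 7 genes, drawn as distance in bases from the transcription start. The upstream matches of Isg15, Ifit1, Ifit3 and Bst2 begin between 156 and 66 bases before the start, and those of Ifitm3 lie past it.

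Expression was available as TPM, a measure of transcript abundance that corrects for transcript length and does not retain the depth of a library. The library of vehicle mouse 1 stood apart. In it the short RNA Bc1 made up 35.3% of TPM (6.02% to 10.8% in the other 14 libraries), and the median gene was at 5.54 TPM (11.8 to 12.99 elsewhere). Longer genes were lower in that library. Among the genes described here, Ifit3, Oasl2 and Irf7 differed in that mouse from the mean of the other vehicle mice by -1.14, -1.18 and -0.86 log2 units, and Usp18 and Ifit1 by -0.31 and -0.33. For the 4 genes with the shortest transcripts the difference was -0.14 for Isg15, -0.06 for Ifitm3, 0.37 for Ifi27l2a and 0.53 for Bst2, so it did not follow length gene by gene. Values are from all 15 mice unless 13 mice are named, which leave out vehicle mouse 1 and siponimod mouse 1. The library of siponimod mouse 1 did not stand apart in the same measures, with Bc1 at 6.93% of TPM and the median gene at 12.8 TPM. This pair was left out because an earlier analysis found that doing so came closest to the calls of the authors' own tests. Fold changes are relative to the median gene of the comparison on the scale of log2(TPM + 0.5), which understates changes of weakly expressed genes. The median gene moved by -0.21 log2 from control to vehicle mice with all mice and by -0.03 with 13 mice. Adjusted p-values are from limma over all 17714 genes and test the unshifted difference.

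In control mice the 9 genes were expressed at low to moderate levels. Ifitm3 was the highest at 25.1 ± 1.86 TPM (mean ± SD, n = 5), followed by Ifit3 at 8.45 ± 1.36 and Bst2 at 7.08 ± 2.96. Isg15 at 4.31 ± 0.534, Oasl2 at 3.47 ± 0.790, Irf7 at 2.68 ± 0.719, Ifi27l2a at 2.25 ± 1.22, Ifit1 at 1.94 ± 0.217 and Usp18 at 1.14 ± 0.356 TPM came below. Ifitm3 was above all the others in every control mouse. Neighbouring genes further down this order overlapped in their ranges over the control mice, except Ifit1 and Usp18, where the lowest Ifit1 level of 1.59 TPM was above the highest Usp18 level of 1.39. The mean level over all 15 mice exceeded that of 70.3% of tested genes for Ifitm3, of 48.7% for Ifit3 and of 15.9% for Usp18. The number of reads behind each level is unknown, because TPM do not keep it.

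**Figure D2:**
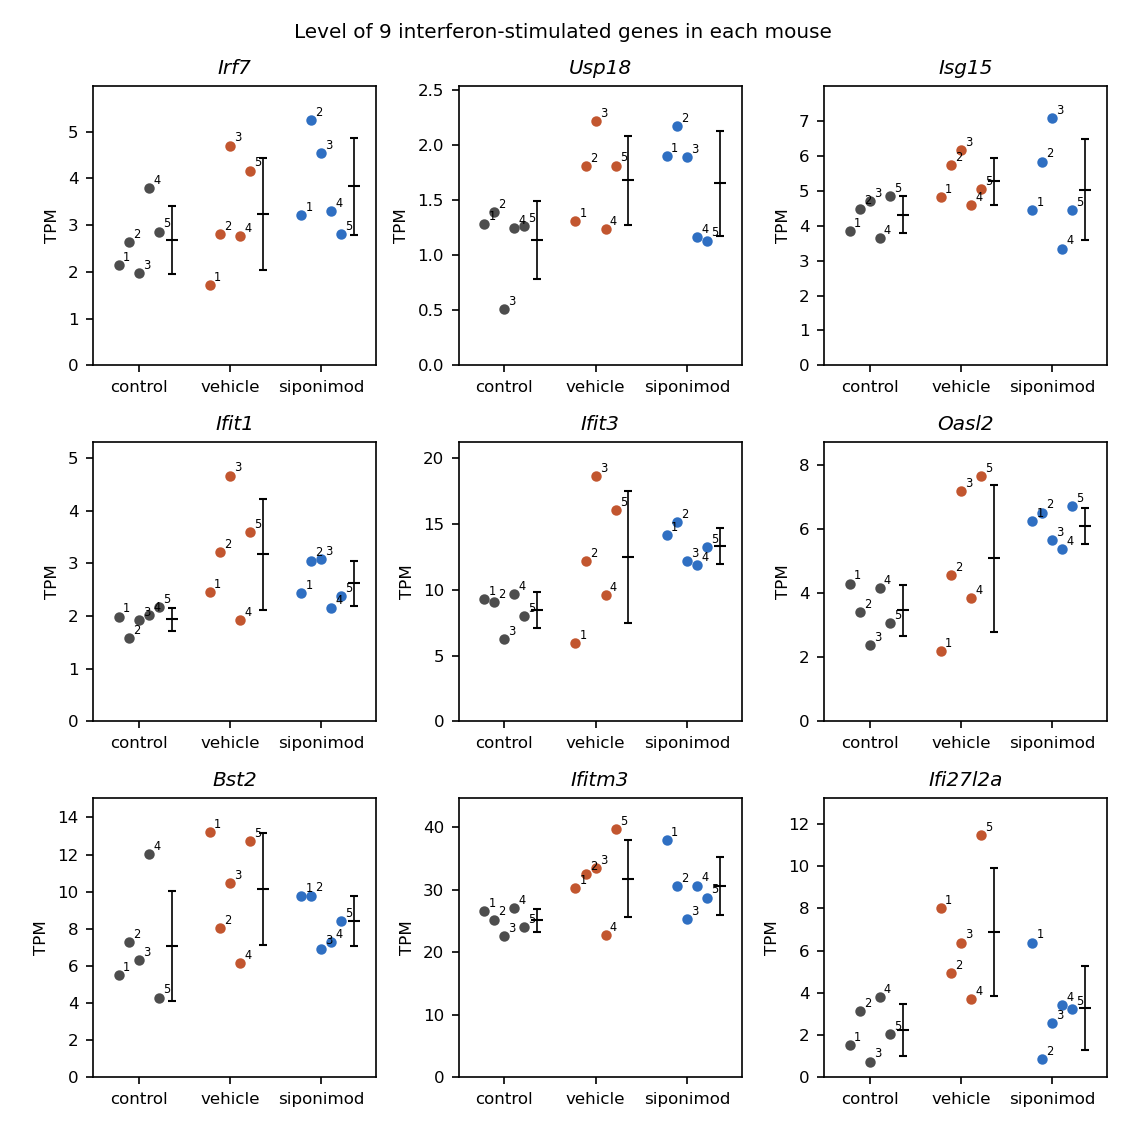
TPM of each of the 9 genes (vertical axes, from 0) in every mouse, with the mouse number beside each point and the mean ± SD of the group (n = 5) as a bar. Siponimod mice lie above all control mice for Ifit3 and Oasl2, and the vehicle mice spread most widely for Ifit3, Oasl2 and Ifi27l2a.

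Irf7 encodes the transcription factor that amplifies type I interferon production. Its levels in TPM were, for mice 1 to 5 of each group in order, 2.14, 2.64, 1.97, 3.79 and 2.86 in control mice, 1.71, 2.81, 4.70, 2.77 and 4.17 in vehicle mice and 3.22, 5.25, 4.54, 3.31 and 2.80 in siponimod mice. Vehicle mice 3 and 5 and siponimod mice 2 and 3 lay above every control mouse, and all other mice fell within or below the control range. Usp18 encodes the protease that removes ISG15 from proteins and restrains signalling at IFNAR2. It was at 1.29, 1.39, 0.512, 1.25 and 1.27 TPM in control mice, at 1.31, 1.81, 2.22, 1.24 and 1.82 in vehicle mice and at 1.90, 2.17, 1.89, 1.17 and 1.13 in siponimod mice. In each cuprizone group 3 of 5 mice exceeded the highest control mouse, and the groups overlapped. Isg15 encodes the ubiquitin-like modifier that Usp18 removes. Its levels were 3.85, 4.49, 4.71, 3.65 and 4.86 TPM in control mice, 4.81, 5.74, 6.17, 4.58 and 5.05 in vehicle mice and 4.45, 5.84, 7.09, 3.35 and 4.44 in siponimod mice. Siponimod mouse 3 was the highest of all mice and siponimod mouse 4 the lowest, and the 3 groups overlapped.

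Ifit1 encodes a protein that binds viral RNA with an incomplete cap. It was at 1.99, 1.59, 1.92, 2.02 and 2.17 TPM in control mice, at 2.46, 3.21, 4.66, 1.92 and 3.60 in vehicle mice and at 2.43, 3.05, 3.08, 2.14 and 2.38 in siponimod mice. In either cuprizone group mouse 4 was the only one that did not exceed all control mice. Ifit3 encodes a relative that, in human cells, stabilises IFIT1. Its levels were 9.26, 9.06, 6.28, 9.65 and 7.99 TPM in control mice, 5.94, 12.2, 18.6, 9.61 and 16.0 in vehicle mice and 14.2, 15.1, 12.2, 11.8 and 13.2 in siponimod mice. All siponimod mice were above all control mice, while vehicle mouse 1 was below all of them and vehicle mouse 4 level with the highest. Oasl2 belongs to the oligoadenylate synthetase family of sensors of double-stranded RNA. It was at 4.30, 3.41, 2.39, 4.16 and 3.08 TPM in control mice, at 2.20, 4.56, 7.20, 3.85 and 7.66 in vehicle mice and at 6.26, 6.52, 5.66, 5.38 and 6.71 in siponimod mice. The siponimod mice again all exceeded the control mice, and vehicle mice 3 and 5 exceeded the siponimod mice.

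The remaining genes encode membrane proteins. Bst2 encodes tetherin, which holds budding virus at the cell surface. Its levels were 5.53, 7.28, 6.30, 12.01 and 4.30 TPM in control mice, 13.2, 8.04, 10.5, 6.18 and 12.7 in vehicle mice and 9.78, 9.79, 6.93, 7.28 and 8.44 in siponimod mice. Control mouse 4 stood above all siponimod mice, so no siponimod mouse exceeded the control range. Ifitm3 encodes a protein that blocks fusion of viruses in endosomes. It was at 26.6, 25.2, 22.6, 27.1 and 24.0 TPM in control mice, at 30.2, 32.5, 33.4, 22.7 and 39.7 in vehicle mice and at 37.8, 30.5, 25.2, 30.6 and 28.7 in siponimod mice. In each cuprizone group 4 of 5 mice were above all control mice. Ifi27l2a encodes a small hydrophobic interferon-induced protein. Its levels were 1.52, 3.13, 0.751, 3.79 and 2.05 TPM in control mice, 7.99, 4.92, 6.38, 3.70 and 11.5 in vehicle mice and 6.38, 0.882, 2.57, 3.41 and 3.23 in siponimod mice. Vehicle mouse 4 lay within the control range and the other vehicle mice above it, whereas siponimod mouse 1 was the only siponimod mouse above it.

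Some of these levels rest on sequence that other genes share. Of the 31-base stretches of Ifit3 transcripts, 61.8% also occur in the neighbouring paralog Ifit3b, so the split of reads between these 2 genes is uncertain. The shared part was 20.5% for Ifitm3, 12.8% for Isg15, 10.5% for Ifit1 and 6.005% for Ifi27l2a, 0.485% for Oasl2 and 0 for Irf7, Usp18 and Bst2. Irf7 (chr7:141262706-141266481, minus strand, GRCm38) overlaps Phrf1 and Usp18 (chr6:121245906-121270917, plus strand) overlaps the non-coding Gm44148, each on the opposite strand. The library kit kept strand per the labels' protocol, but whether quantification used strand is not stated in the sources at hand. Ifit3 (chr19:34583531-34588731) and Ifit1 (chr19:34640871-34650009) lie near each other on the plus strand. Ifitm3 (chr7:141009586-141010770) lies on the minus strand of the same chromosome as Irf7.

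The comparison of vehicle with control mice asked which of these genes differed after 3 weeks of cuprizone with vehicle. All 9 had a higher level relative to the median gene, by 0.41 to 1.67 log2 with a median of 0.63. Of the limma intervals of these changes only that of Irf7 included 0, from -0.09 to 0.91. Subtracting the median gene's change of -0.21 log2 moved all of these intervals upwards. The share of all genes whose interval left out 0 was not counted. With 13 mice, where the median gene's change was -0.03, the intervals of Irf7, Isg15 and Bst2 included 0. The test is of the unshifted difference, which ran from 0.20 log2 for Irf7 to 1.46 for Ifi27l2a with all mice. None of the 9 passed it after adjustment with all 15 mice, where 0.423% of tested genes were called higher. Before adjustment 3 of the 9 had a p under 0.05 in limma, as had 9.94% of tested genes. With 13 mice Ifit3 rose and was 1 of 9 called, against 1.94% of all genes. Here, as in any bulk tissue, more cells of a type and more RNA per cell cannot be told apart.

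Ifit3 averaged 12.5 ± 5.04 TPM in vehicle mice against 8.45 ± 1.36 in control mice (mean ± SD, n = 5 each). Its relative change was 0.66 log2 with all mice (95% limma interval 0.16 to 1.16, adjusted p = 0.461) and 0.71 with 13 mice, a 1.64-fold rise (0.36 to 1.06, adjusted p = 0.0288). Leaving out vehicle mouse 1 alone gave an adjusted p of 0.0249 (1.6% of genes called higher), scaling libraries to a common median gave 0.0350 (1.38%), and weighting libraries by their quality in limma gave 0.0184, with vehicle mouse 1 at the lowest weight of the 15 libraries, 0.0162. The Ifit3 call thus depended on vehicle mouse 1, in which Ifit3 was the lowest of the vehicle mice. With these weights Oasl2 was called as well, 2 of 9 against 1.7% of genes, at a relative change of 0.69 log2 (adjusted p = 0.0477), against 0.67 (adjusted p = 0.0769) with 13 mice.

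Ifi27l2a had the largest relative change of the 9, at 6.89 ± 3.03 against 2.25 ± 1.22 TPM. The change was 1.67 log2, or 3.19-fold (95% limma interval 0.80 to 2.54, adjusted p = 0.138), and 1.42 log2 with 13 mice (adjusted p = 0.0601), so it did not pass in either fit. Ifit1 came next with all mice at 0.76 log2 (adjusted p = 0.287). With 13 mice it was at 0.64 (adjusted p = 0.0769), below Ifit3 and Oasl2. The relative changes of Bst2, Usp18, Ifitm3, Isg15 and Irf7 were 0.72, 0.63, 0.52, 0.47 and 0.41 log2 with all mice and 0.44, 0.52, 0.35, 0.32 and 0.40 with 13 mice. Their adjusted p ran from 0.461 to 0.589 with all mice and from 0.181 to 0.447 with 13 mice. Without vehicle mouse 1 and siponimod mouse 1, 6 of the 9 had an unadjusted p under 0.05 in limma, as had 16.0% of all tested genes. With all mice this held for 3 of the 9 and for 9.94% of all tested genes. From all mice again, it held for 9 of 9 and 10.9% after scaling libraries to a common median. With Bc1 taken out it held for 8 of 9 and 9.42%.

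In the authors' deposited table, 4 of the 9 genes had an adjusted p under 0.05 in this comparison, against 3.86% of its genes called higher. These were Ifi27l2a at a log2 fold change of 1.56 (adjusted p = 0.0045), Ifit1 at 0.85 (0.00482), Oasl2 at 0.69 (0.0107) and Ifit3 at 0.78 (0.0176) in the authors' deposited table. All 9 had a positive fold change in it, and the authors' test is unknown.

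**Figure D3:**
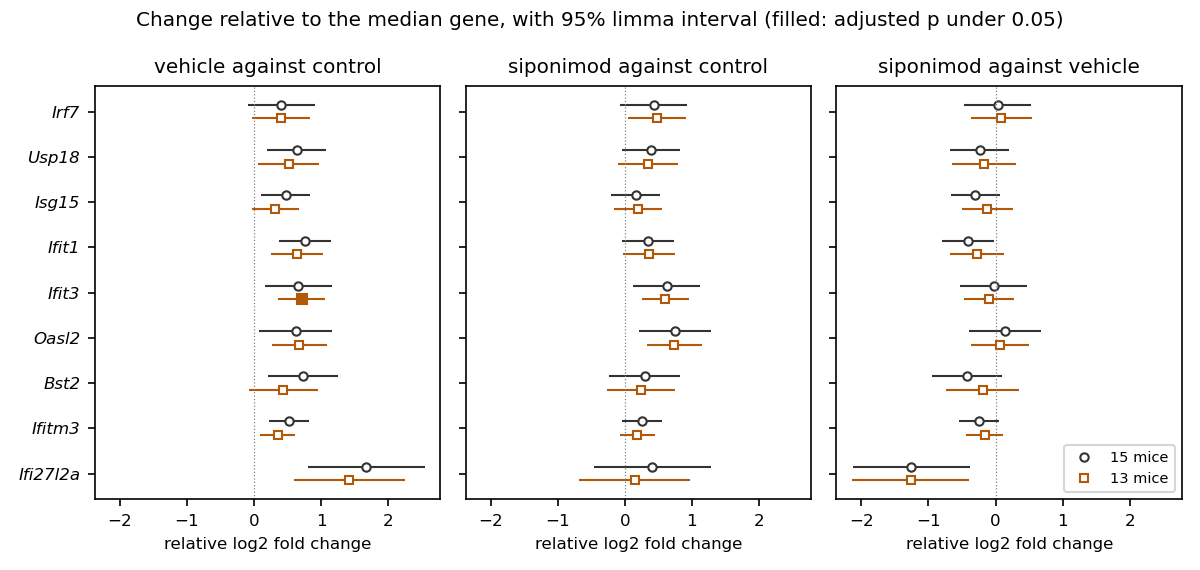
Relative log2 fold change of each gene in the 3 comparisons (horizontal axes) with its 95% limma interval, from all 15 mice (circles) and from 13 mice (squares); a filled symbol marks an adjusted p under 0.05. All points of both comparisons with control lie above 0, the only filled one is Ifit3 in vehicle against control mice with 13 mice, and Ifi27l2a lies lowest in siponimod against vehicle mice.

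The comparison of siponimod with control mice asked which of these genes differed in mice that had cuprizone and siponimod together. All 9 again had a positive relative change, from 0.16 to 0.75 log2 with a median of 0.39. None passed with all 15 mice, where 0.209% of genes were called higher, or with 13 mice, where 0.796% were. For Ifit3 and Oasl2 every siponimod mouse exceeded every control mouse, as was the case for 2.74% of all tested genes (3.15% with 13 mice).

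Oasl2 averaged 6.11 ± 0.566 TPM in siponimod mice against 3.47 ± 0.790 in control mice. This was a relative change of 0.75 log2, or 1.68-fold (95% limma interval 0.21 to 1.28, adjusted p = 0.480 with all mice and 0.0657 with 13 mice). Ifit3 averaged 13.3 ± 1.37 against 8.45 ± 1.36 TPM, a relative change of 0.63 log2, or 1.54-fold (0.13 to 1.13, adjusted p = 0.629 and 0.0849). Whether these genes passed depended on the vehicle mice in the same fit, whose spread enters the test though they are not compared. Fitted on siponimod and control mice alone, Oasl2 and Ifit3 were called at adjusted p = 0.00896 and 0.00758, 2 of 9 against 1.46% of genes called higher. Leaving out vehicle mouse 1 gave 0.0274 and 0.0334, again 2 of 9 against 1.27%, and library weights gave 0.0155 and 0.0361 (1.39%). In the authors' deposited table the same 2 genes passed, Ifit3 at a log2 fold change of 0.62 (adjusted p = 7.61e-06) and Oasl2 at 0.65 (0.000169), against 2.55% of its genes called higher.

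The other 7 genes had relative changes of 0.43 log2 for Irf7, 0.41 for Ifi27l2a, 0.39 for Usp18, 0.34 for Ifit1, 0.29 for Bst2, 0.26 for Ifitm3 and 0.16 for Isg15. Each of their 95% limma intervals included 0, and that of Ifi27l2a was the widest, from -0.46 to 1.28. With 13 mice the changes in the same order were 0.48, 0.15, 0.34, 0.36, 0.24, 0.18 and 0.19 log2, and those of Oasl2 and Ifit3 were 0.74 and 0.61.

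The comparison of siponimod with vehicle mice asked what siponimod changed in cuprizone-fed mice. Limma called 0 of 17714 genes (0%) with all mice and with 13 mice, and 874 genes (4.93%) had an unadjusted p under 0.05 with all mice. Ifi27l2a was the only one of the 9 among these 874, and it was lower in siponimod mice at 3.29 ± 1.99 against 6.89 ± 3.03 TPM. Its relative change was -1.26 log2 with all mice (95% limma interval -2.13 to -0.39, unadjusted p = 0.0217 in limma, adjusted p = 0.496). With 13 mice it was again -1.26 (unadjusted p = 0.009 in limma, adjusted p = 0.377), and all 4 siponimod mice were then below all 4 vehicle mice, as were 1.19% of tested genes. Siponimod mouse 1 was level with vehicle mouse 3, so the groups overlapped with all mice, and without siponimod mouse 1 they did not. Without vehicle mouse 1 alone the relative change was -1.01 log2 (adjusted p = 0.573). The authors' deposited values of this comparison cover 6 of the 9 genes, without Ifi27l2a, Isg15 and Usp18.

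Ifit1, Bst2, Isg15, Ifitm3 and Usp18 had relative changes of -0.41, -0.42, -0.30, -0.25 and -0.24 log2 in siponimod mice, with adjusted p from 0.518 to 0.936. With 13 mice these were -0.28, -0.19, -0.12, -0.16 and -0.17 log2, and without vehicle mouse 1 alone -0.30, -0.14, -0.16, -0.09 and -0.12, so for Bst2, Isg15, Ifitm3 and Usp18 that library alone moved the value by over 1.5 times. Ifit3, Irf7 and Oasl2 had relative changes of -0.03, 0.03 and 0.14. For Oasl2 the 95% limma interval ran from -0.40 to 0.67, for Irf7 from -0.47 to 0.53 and for Ifit3 from -0.52 to 0.47. Relative changes within these limits, in either direction, are compatible with the data. The intervals do not give the smallest difference that the test, adjusted over all genes, could have detected. In the authors' deposited table the other 6 genes had log2 fold changes from -0.40 for Ifit1 to -0.04 for Oasl2, and 0 passed, against 0.64% of its genes called lower. The comparisons of vehicle and of siponimod mice with control share the control mice, and their values for the 9 genes are therefore not independent.

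Within a group the genes tended to be high in the same mice. Among vehicle mice, mouse 3 had the highest level of 5 of the 9 genes and mouse 5 of another 3, while mouse 4 was among the lowest pair for all 9. Among control mice, mouse 4 was highest for 5 genes and mouse 3 lowest for 6. Among siponimod mice, mouse 2 was highest for 4 and mouse 4 lowest for 4. The mean log2(TPM + 0.5) of the 9 genes ran from 1.88 to 2.49 in control mice, from 2.33 to 3.07 in vehicle mice and from 2.45 to 2.78 in siponimod mice.

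The spread between mice differed from gene to gene. The coefficient of variation had a median over the 9 genes of 22.8% in control, 33.4% in vehicle and 16.2% in siponimod mice, and of 28.4% and 17.8% in the cuprizone groups without mouse 1. Oasl2 and Ifit3 varied by 9.27% and 10.3% among all siponimod mice, the lowest of the 9, and by 45.2% and 40.4% among vehicle mice (32.6% and 28.4% without vehicle mouse 1). Without siponimod mouse 1 Ifitm3 was lowest at 8.79%, before Oasl2 at 10.7% and Ifit3 at 11.3%. Ifi27l2a had the largest coefficient of the 9 in control and siponimod mice, at 54.4% and 60.4%, and the second largest in vehicle mice, at 43.9%. These differences in spread were not tested.

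**Figure D4:**
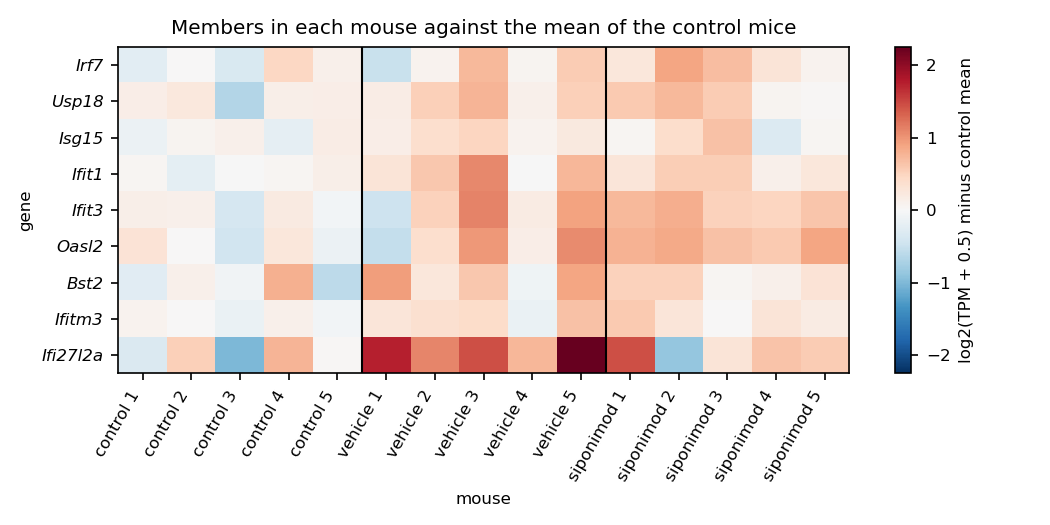
Level of each gene in each mouse as log2(TPM + 0.5) minus the mean of the control mice, from blue (lower) to red (higher), with black lines between the groups of 5. Vehicle mice 3 and 5 are red for most genes and vehicle mouse 4 is pale, and Ifi27l2a is darkest in vehicle mouse 5.

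With each gene's group mean removed, the 36 pairs of the 9 genes had Pearson correlations from -0.33 to 0.93 over the 13 mice, with a median of 0.55, given as a description. The mice share libraries with all genes, so a library that is high or low in general enters every pair. The closest pair was Ifit3 and Oasl2 at 0.93, followed by Oasl2 and Ifitm3 at 0.78 and Ifit3 and Ifitm3 at 0.77. Irf7 and Usp18 reached 0.74, as did Usp18 and Ifit3. Isg15 took part in all 4 negative pairs, of which that with Ifi27l2a was the lowest.

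The 8 tested genes most like the mean of the 9, by Pearson correlation over the same 13 mice, were Ifi204 (0.96), Ifit3b (0.94), Milr1 (0.93), Casp8 (0.93), Gbp6 (0.90), Slfn2 (0.90), Tgif1 (0.90) and Gbp3 (0.89). These values include differences between groups. Of these 8 genes Ifi204, Ifit3b, Gbp6, Slfn2 and Gbp3 also stand in the lists of interferon-induced genes used here. Ifit3b, the paralog that shares sequence with Ifit3, was at 3.96 ± 0.442 TPM in control, 5.30 ± 2.36 in vehicle and 6.17 ± 1.14 in siponimod mice.

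The rest of the pathway was read from lists by role. The 13 genes on the list of interferon ligands were not analysed here. The receptor genes Ifnar1 and Ifnar2 were at 22.5 ± 0.726 and 18.1 ± 1.66 TPM in control mice. Neither was called in any comparison with 15 or 13 mice. From control to vehicle mice the relative change was -0.03 and 0.28 log2 with all mice and 0.11 and 0.18 with 13 mice, so that of Ifnar1 changed sign. From control to siponimod mice it was 0.04 and -0.02 with 13 mice. The transducers Stat2 and Irf9, which bind the ISRE in 1 complex, had relative changes of -0.08 and 0.15 log2 in vehicle mice with all mice and of 0.05 and 0.26 with 13 mice, and neither was called. In siponimod mice they were at -0.02 and 0.01 with 13 mice. In vehicle against control mice the list median of 5 tested receptors was 0.19 log2 with all mice and 0.14 with 13 mice. That of 6 transducers was -0.07 and 0.05, so its direction turned with the mice left out, and the median of all genes is 0 by construction.

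Among 35 tested interferon-induced effectors other than the 9, none was called with all mice in any comparison. With 13 mice 4 of the 35 rose in vehicle mice, where 1.94% of all tested genes were called higher, and none fell, where 2.39% were called lower. The list median was 0.26 log2 with all mice and 0.19 with 13 mice. They were Phf11d at 0.89 log2 (adjusted p = 0.00451), the DNA sensor family gene Ifi204 at 1.22 (0.0165), Trim30a at 0.74 (0.0201) and Parp14 at 0.48 (0.0487). In siponimod mice none of the 35 was called against control, at a median of 0.16. As with the 9 genes, most of these effectors had a positive relative change with 13 mice, 31 of 35 in vehicle and 28 of 35 in siponimod mice against control.

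Among the tested genes of the pathway lists Cxcl10, of the list of genes induced by interferon gamma, had the largest change. It encodes a chemokine that attracts T cells and was at 0.224, 0.507, 0.338, 0.189 and 0.357 TPM in control mice, at 2.24, 3.99, 5.07, 1.68 and 7.02 in vehicle mice and at 3.28, 3.10, 2.02, 1.70 and 1.87 in siponimod mice. Every siponimod mouse was above every control mouse, as was the case for 2.74% of all tested genes. Cxcl10 rose by 2.53 log2 in vehicle mice (adjusted p = 0.000236) and by 1.78 in siponimod mice (adjusted p = 0.00364) with all 15 mice, and it was the 1 called gene of 16 in its list in both, against 0.423% and 0.209% of all genes called higher. Its difference between siponimod and vehicle mice was -0.74 log2 (adjusted p = 0.496). With 13 mice the guanylate-binding proteins Gbp6, Gbp5 and Gbp3, which act against microbes inside cells, also rose in vehicle mice. The changes were 0.91, 0.59 and 0.66 log2 (adjusted p = 0.00368, 0.0450 and 0.0462). With Cxcl10 this made 4 of 16 in the list, against 1.94% of all genes called higher with 13 mice. Gbp2 rose in siponimod mice by 0.56 log2 with 13 mice (adjusted p = 0.0436), with Cxcl10 2 of 16, against 0.796% of all genes.

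Sensors and regulatory factors of interferon induction moved in part. With 13 mice Tlr7 and Tlr3, endosomal receptors for RNA, rose in vehicle mice by 1.04 and 0.45 log2 (adjusted p = 0.00275 and 0.0453), 2 of 11 sensors against 1.94% of all genes called higher. Irf8, a factor needed for microglial identity, rose by 0.93 (adjusted p = 0.00518) and Irf5, a myeloid factor downstream of Toll-like receptors, by 0.90 (adjusted p = 0.00567), 2 of 11 adaptors and factors against the same 1.94%. Irf5 was called with all mice as well, at 1.19 log2 (adjusted p = 0.0154), as was Ptpn6, a phosphatase of immune cells that restrains signalling, at 1.20 (adjusted p = 0.0129), the 1 called gene of 9 restraints, where 0.423% of all genes were called higher. The Irf5 call with all mice was lost without control mouse 4 (adjusted p = 0.0569) and with the compared groups fitted alone (0.0717). Irf3, the factor that acts before Irf7, had a relative change of 0.12 log2 in vehicle mice and 0.16 in siponimod mice with 13 mice and was not called.

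With 13 mice Irf1, a factor induced by interferon gamma, was called in siponimod mice against control. As the 1 called gene of 11 adaptors and factors, it stood against 0.796% of all genes called higher. It was at 6.98, 6.19, 6.60, 5.69 and 6.57 TPM in control mice, at 4.13, 6.34, 7.46, 7.39 and 8.56 in vehicle mice and at 8.81, 8.42, 8.70, 9.55 and 8.55 in siponimod mice. All siponimod mice lay above all control mice, as was the case for 2.74% of all tested genes. Vehicle mouse 5 lay within the siponimod range. The relative change from control to siponimod mice was 0.42 log2 with 13 mice (adjusted p = 0.0196) and 0.42 with all mice (adjusted p = 0.601). Between siponimod and vehicle mice it was 0.20 log2 with 13 mice (adjusted p = 0.462), so no difference between the cuprizone groups was shown.

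**Figure D5:**
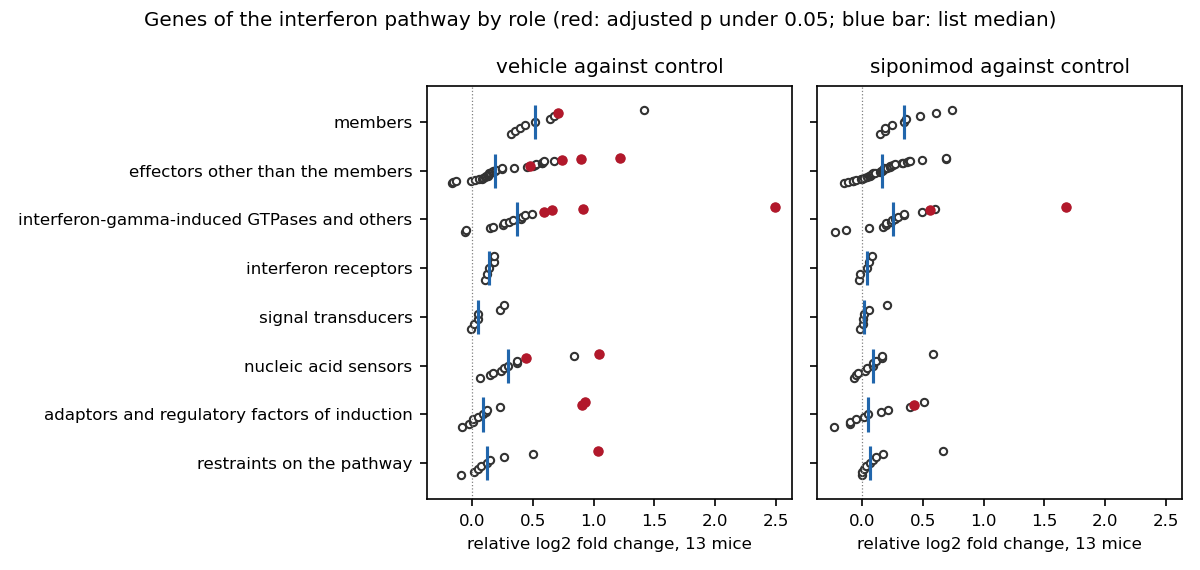
Relative log2 fold change with 13 mice (horizontal axes) of the 9 genes, in the top row, and of the tested genes of each pathway list, against control mice. Red points have an adjusted p under 0.05 and blue bars mark list medians; receptors and transducers lie close to 0 and Cxcl10 lies farthest to the right in both panels.

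Cell type markers also differed between the groups. The summed TPM of 8 microglial markers ran from 276 to 320 in control mice, from 350 to 577 in vehicle mice and from 323 to 491 in siponimod mice, so every cuprizone-fed mouse was above every control mouse. In vehicle against control mice 1 of these 8 markers, C1qa, rose with all mice (0.423% of all genes called higher), a call lost in 5 of 15 fits that left out a single mouse, and 4 of 8 rose with 13 mice (1.94%). In siponimod against control mice 0 of 8 were called in either fit. The order of the mice within a group followed the microglial sum only in part. Vehicle mouse 5 had the highest sum of its group and was among the highest pair for 8 of the 9 interferon-stimulated genes, and vehicle mouse 4 had the lowest sum and was among the lowest pair for all 9. Vehicle mouse 1, however, had the second highest sum and was among the lowest pair for 7 of the 9, and control mouse 3 had the highest control sum and was lowest for 6. Of 8 markers of disease-associated microglia 6 rose in vehicle mice and 3 in siponimod mice, with all mice (against 0.423% and 0.209% of all genes called higher) and with 13 mice (1.94% and 0.796%). With all mice the vehicle calls of Trem2 and Tyrobp were lost in 5 and 4 of the 15 fits that left out a single mouse, with adjusted p up to 0.0593 and 0.0749. The siponimod call of Cst7 was lost in 9 of these 15 fits, with adjusted p up to 0.124, and that of Itgax in 1 (0.0527). With mouse number as a block Cst7 and Itgax were not called either (adjusted p = 0.0677 and 0.0701). The summed TPM of 6 oligodendrocyte markers ran from 1646 to 2558 in control, from 265 to 663 in vehicle and from 374 to 700 in siponimod mice, and 6 of 6 fell in both comparisons with control, against 0.819% and 0.536% of all genes called lower with all mice (2.39% and 1.18% with 13 mice). Of these calls that of Cnp in siponimod mice was lost in 10 of the 15 fits without a single mouse. The sum of 6 endothelial markers ran from 177 to 197, from 136 to 180 and from 184 to 199 TPM. With all mice 0 of these 6 were called against control. With 13 mice Cldn5 fell in vehicle mice, 1 of 6 (2.39% of all genes called lower). In siponimod mice Ly6c1 rose and Slco1a4 fell, 1 of 6 each (0.796% called higher and 1.18% lower). The sum of 6 astrocyte markers ran from 776 to 910 TPM in control, from 496 to 1532 in vehicle and from 942 to 1425 in siponimod mice, and that of 6 neuronal markers from 4076 to 4156, from 1718 to 4069 and from 3812 to 4238 TPM, with the lowest vehicle value of both in vehicle mouse 1. Of the 6 astrocyte markers 1, Gfap, rose in both comparisons with control with all mice (0.423% and 0.209% of all genes called higher). With 13 mice Gfap, Aldh1l1 and Slc1a3 rose in vehicle mice, 3 of 6 (1.94%). Gfap and Aldh1l1 rose in siponimod mice, 2 of 6 (0.796%). In these fits 0 astrocyte markers were called lower. The sum of 5 red blood cell markers ran from 15.8 to 143 TPM in control, from 166 to 473 in vehicle and from 102 to 417 in siponimod mice. Of 12 genes listed for blood leukocytes, Ptprc and Ccr2 were analysed here. Their sum ran from 1.42 to 1.95 TPM in control, from 1.96 to 6.47 in vehicle and from 2.34 to 5.06 in siponimod mice. Nearly all of it was Ptprc, at 1.46 ± 0.197, 3.77 ± 1.64 and 2.88 ± 1.17 TPM (mean ± SD, n = 5). Ccr2, at 0.158 ± 0.0445, 0.109 ± 0.0442 and 0.186 ± 0.0791, was lower on average in vehicle than in control mice. The number of blood leukocytes can therefore not be read from this sum. The part of these cell types in the levels of the interferon-stimulated genes was not tested.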

How the data were processed

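Each pair of the 3 groups has 1 deposited table of TPM per mouse, per the file headers, and TPM of the same mouse did not differ between tables. Results of the authors' own tests stand beside the TPM: log2 fold changes and their errors, p-values raw and adjusted, a score (fold change divided by error) and a mean signal per gene, the last of these not used here. Neither the labels nor the headers state which test the authors ran. Bcl2fastq, Trim Galore 0.6.6, STAR 2.6.1d, Salmon 1.4.0 and build mm10 are named in the submitters' processing notes. The labels' protocol names a stranded total RNA kit with ribosomal RNA depletion, whereas the first line of the files names a 3 prime mRNA analysis, and which was used could not be settled. A 3 prime method would make TPM depend on the end of each transcript.

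Of 19261 genes with TPM in all 15 mice, 17714 were above 0.5 TPM in at least 5 mice. All 3 groups entered a single linear model of log2(TPM + 0.5) in limma 3.58.1 (R 4.3.3), with a mean trend and Benjamini-Hochberg adjustment over all tested genes at 0.05. The median change over genes was subtracted from fold changes and intervals, and p-values test the unshifted difference. The interval width includes shifts of whole libraries. The labels name each mouse separately, and p-values measure the spread between these mice. TPM keep no depth, so no counting error is given. Alternatives were pseudocounts of 0.1 and 1, omission of the filter, testing only genes whose mean reached the median TPM, common-median scaling, removal of Bc1, fits of the compared groups alone, library weights, mouse number as a block and leaving out mice. The fit was tested on simulated data.

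The genes, the lists and the choice to leave out mouse 1 of both cuprizone groups were made with earlier results of these data known. The mice were chosen because an earlier analysis found that leaving out this pair came closest to the authors' calls, not because the library of siponimod mouse 1 stood apart. Named in full were the 9 genes, up to 4 called genes of each pathway list with the smallest adjusted p, fixed pathway genes (among them Stat2, Irf9, Ifnar1, Ifnar2 and Irf3) and the 8 genes most like the mean of the 9. A further fixed pathway gene is not reported here. Of 170 list entries 143 matched by symbol, and the other 27 were not analysed here. Coordinates and transcripts came from GENCODE M21 on GRCm38 and promoters from RefSeq (GRCm38.p6). Shared sequence was counted as 31-base stretches that occur in transcripts of another gene. Python 3.11.15 with pandas 2.3.3, numpy 2.4.6 and matplotlib 3.10.9 did the rest.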

Additional observations from a re-analysis of the deposited data

Results flagged for a closer look

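Usp18 in control mouse 3 was at 0.512 TPM, against 1.25 to 1.39 TPM in the other 4 control mice. The gap to the next mouse was 0.84 of the whole range of the control group, which is wide for 5 samples. It was the 1 such value among 27 sets of 5 mice (9 genes in 3 groups), and chance gives about 1 in 20. Control mouse 3 was also the lowest control mouse for 6 of the 9 genes.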

How the results depend on the processing

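The direction of each of the 9 genes against control was the same under every alternative run, and so was that of Ifi27l2a in siponimod against vehicle mice. Irf7 and Ifit3, which were near 0 in siponimod against vehicle mice (0.03 and -0.03 log2), changed sign when single mice were left out, with ranges of -0.068 to 0.13 for Irf7 and -0.14 to 0.10 for Ifit3.

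In vehicle against control mice 220 genes were called with all mice. The count was 84 among genes at or above the median TPM, 426 after scaling to a common median, 727 with library weights, 768 with 13 mice and 148 to 652 with single mice left out. Of the 9 genes 0 were called, 1 after scaling (Ifit3, as with 13 mice), 2 with weights, 1 with 13 mice and 0 to 1 with single mice left out. Of the pathway lists 3 genes were called, against 0 among genes at or above the median TPM, 9 after scaling, 7 without Bc1, 12 with weights, 13 with 13 mice and 2 to 11 with single mice left out. The highest of each range came without vehicle mouse 1.

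In siponimod against control mice 132 genes were called, and 43, 209, 518 and 350 under median TPM, scaling, weights and 13 mice, 508 with these groups fitted alone and 97 to 490 with single mice left out. Of the 9 genes 0 were called, 2 alone or with weights and 0 to 2 with single mice left out. Pathway genes called were 1, then 0, 2, 7 and 3, 8 alone and 1 to 6 with single mice left out. Here too the highest counts came without vehicle mouse 1. In siponimod against vehicle mice 0 genes were called, and 1 with weights.

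Among genes at or above the median TPM only Ifitm3 of the 9 remains, so that alternative tests fewer genes. The labels do not say that equal mouse numbers pair the mice. Deviations of same-numbered mice had correlations of -0.06 to 0.20, and those of differently numbered mice of -0.20 to 0.21. With the mouse number as a replicate block 178, 111 and 0 genes were called in the 3 comparisons and 0 of the 9 in each. The causes of the other shifts were not tested.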
